A study of Mus musculus with 12 samples.

Results

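The comparison described here set preosteoclasts grown from mandible marrow against preosteoclasts grown from femur marrow, in LSD1WT mice that carried a ligature. It rests on 4 of the 12 libraries in the series, mandible replicates 1 and 3 and femur replicates 1 and 2. A gene was taken as a member when both mandible libraries lay on one side of both femur libraries. Of 15425 genes with enough reads to be tested, 4508 lay higher in both mandible libraries and 4854 lay lower.

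All mice were female and 2 months old by the sample labels, whereas the study's sequencing methods give an older age. Ligatures, which gather oral bacteria around the tooth and inflame the gum, were tied around upper molars on both sides for 7 days. Marrow was flushed from the lower jaw or the thigh bone and cultured for 2 days with M-CSF and RANKL, the cytokines that drive marrow precursors towards osteoclasts. Replicate 1 of both sites came from mouse 1L, femur replicate 2 from mouse 2L and mandible replicate 3 from mouse 3L. The labels do not give the floxed or Cre alleles of LSD1WT mice. Libraries used for reference came from unligated LSD1WT femur, from ligated LSD1cKO mandible and femur and from unligated LSD1cKO femur, 2 each. In LSD1cKO mice Lsd1 (Kdm1a), which encodes a histone demethylase, was deleted with LysM-Cre in myeloid cells. Values are given as CPM, read counts per gene scaled to a common library size. Kdm1a stood at 66.8 to 71.3 CPM in the 4 LSD1WT libraries and at 15.6 to 24.3 CPM in the ligated LSD1cKO libraries.

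Osteoclasts are large multinucleated cells that form when myeloid precursors fuse, and they dissolve bone with acid and proteases. The same precursors can also mature into macrophages, and type I interferon is a known brake on the osteoclast route. Interferon acts through a receptor and STAT proteins, which with IRF9 bind a short DNA element before genes such as Ifit1 and Rsad2.

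The label of mandible replicate 3 conflicted with itself, since its title named the mandible and its library name named the femur. Raw counts of tooth and jaw genes were read as a check of that label. Odam, a protein of enamel-forming and gum-attachment epithelium, had 142 and 166 counts in mandible replicates 1 and 3 and no count in any of the 8 femur libraries. Krt14, a keratin of basal epithelium, had 27 and 47 counts, and Hand2, a patterning factor of the lower jaw, had 9 and 15 counts, again with no count in any femur library. Replicate 3 was therefore kept as mandible, as its title says.

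Replicates of the 2 sites differed in very unequal degree. The mandible pair came close to sampling noise, with a biological coefficient of variation of 0.0246 and a median chi-square of 1.57 times that expected from counting alone, although its labels name different mice. The femur pair had a coefficient of 0.719. Femur replicate 1 resembled the mandible libraries, with Pearson's r of 0.976 and 0.977 across genes, while femur replicate 2 reached 0.832 and 0.834. The femur libraries parted in osteoclast and macrophage transcripts. Summed over 28 fusion and resorption genes, femur replicate 1 held 53576 CPM and femur replicate 2 held 2790.6 CPM, or 5.21% of it, against 37938 and 37685 CPM in the mandible libraries. Whether femur replicate 2 held fewer osteoclast-lineage cells or less of their RNA per cell cannot be told apart in bulk samples, and the same holds for each list below. Some marker lists of other cells were also higher in femur replicate 2 than in replicate 1. The summed megakaryocyte list stood at 27.5 and 27.1 CPM in the mandible and at 48.9 and 916.5 CPM in the femur. Pf4 made up 883.5 CPM of it in femur replicate 2. The B cell list stood at 9.14 and 9.06 against 13.2 and 223.6 CPM. Eosinophil genes went the other way, at 60.9 and 63.4 against 37.5 and 5.85 CPM, as did mast cell and basophil genes. The part of these cells in the results was not tested. Cd3e, Cd3d, Cd3g and Cd8a of T cells and Alas2 of erythroid cells had no count in any of the 4 libraries.

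No gene passed an adjusted p of 0.05 in edgeR's quasi-likelihood test of mandible against femur, and the smallest adjusted p was 0.167. An unadjusted p under 0.05 was reached by 780 genes (5.06%) that were higher in the mandible and 2271 genes (14.7%) that were lower. DESeq2 on the same libraries called 1190 genes, 122 higher and 1068 lower. Without femur replicate 1 the edgeR test called 3753 genes. Values below are therefore given library by library, and "higher" or "lower" describes the order of the libraries, not a passed test. Separation itself was common, at 29.2% of tested genes higher and 31.5% lower. Only 258 genes (1.67%) were higher and 512 (3.32%) lower with a gap of at least 1 log2 unit between the nearest libraries of the 2 sites. At the edge of the rule stood Dnajb1, just inside it with 64.4 and 64.8 CPM in the mandible against 64.4 and 47.5 CPM in the femur. Plp2 lay just outside, with 296.4 and 293.2 against 293.2 and 125.3 CPM. Femur replicate 1 was the nearer femur library for 83.4% of the higher and 85.7% of the lower genes.

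Among genes of at least 16 CPM, the widest gap on the higher side belonged to Pmepa1 (ENSMUSG00000038400), a target of TGF-beta signalling that dampens it. It stood at 79.1 and 79.9 CPM in the mandible libraries and at 5.59 and 1.74 CPM in the femur libraries. Both mandible values lay far above both femur values, and the unligated femur libraries, at 4.66 and 3.48 CPM, were like the ligated ones. The log2 fold change was 4.42 ± 0.71 (SE, 2 libraries a site, edgeR adjusted p = 0.167). Ltbp1, which holds latent TGF-beta in the matrix, followed with 55.2 and 55.5 CPM against 12.03 and 1.69 CPM.

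The other genes of this group had varied roles. Lif, an interleukin-6 family cytokine, was at 54.0 and 60.0 CPM in the mandible and at 17.3 and 0.103 CPM in the femur. Tnfrsf12a, the receptor of the cytokine TWEAK, was at 19.2 and 19.5 against 5.69 and 2.67 CPM, one of the tighter contrasts with a log2 fold change of 2.21 ± 0.40 (SE). Epha2, an ephrin receptor, was at 35.0 and 30.3 against 11.8 and 1.03 CPM. Angptl2, a secreted protein of the angiopoietin-like family, was the one gene of the 12 in which femur replicate 2, at 14.8 CPM, exceeded femur replicate 1, at 10.7 CPM, with the mandible at 46.8 and 45.9 CPM. Mybl2, a transcription factor of dividing cells, and Dyrk3, a kinase, were at 38.5 and 38.0 against 15.7 and 2.77 CPM and at 23.6 and 24.2 against 6.73 and 2.21 CPM. Tmem26, Slc6a17, Sec16b and the imprinted antisense RNA Kcnq1ot1 completed the 12. Kcnq1ot1 overlaps Kcnq1, and the sources used here do not say whether counting used strand, so its reads are uncertain.

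All 12 were also higher than in both unligated femur libraries, as were 3161 of the 4508 higher genes (70.1%). Of all tested genes, 20.5% were higher than in all 4 LSD1WT femur libraries. That wider comparison called no gene in edgeR either, with 1113 higher (7.22%) and 2395 lower (15.5%) at an unadjusted p under 0.05, and it shares its mandible libraries with the one above. In LSD1cKO, whose 4 ligated libraries share none with this comparison, 11 of the 12 were separated in the same direction, as were 72.9% of the 4508 higher genes and 35.3% of all tested genes. The exception was Kcnq1ot1, at 14.3 and 8.65 CPM in the LSD1cKO mandible and 22.3 and 5.79 CPM in the femur.

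**Figure D1:**
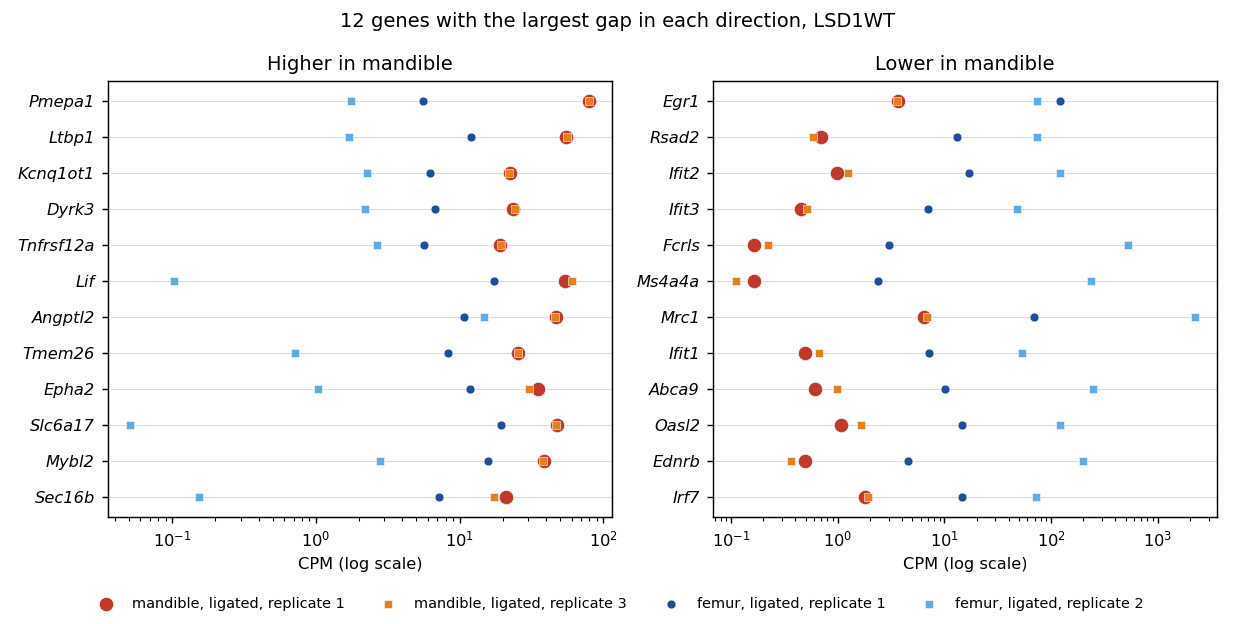
CPM on a log axis of the 12 genes with the largest gap in each direction, with 1 point for each of the 4 ligated LSD1WT libraries (red and orange, mandible; dark and light blue, femur). The mandible points nearly coincide, as for Pmepa1 at 79.1 and 79.9 CPM, while the femur points spread, with replicate 1 the nearer in 11 genes of each panel.

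At a lower floor of 4 CPM, the genes with the widest gap shared by both genotypes began with Pmepa1, followed by Odam. Odam was at 5.79 and 6.09 CPM in the LSD1WT mandible and had no count in the femur, at least 37.6-fold higher when the femur is set to the floor of 3 counts per library. In LSD1cKO it was at 0.962 and 18.3 CPM in the mandible, a wide spread, and again at 0 in the femur. Tnn, an extracellular matrix protein of the tenascin family, was at 4.82 and 4.66 against 0.420 and 0.205 CPM, and Foxf2, a forkhead factor of craniofacial mesenchyme, at 5.06 and 4.88 against 1.00 and 0.0513 CPM. Cspg4, the NG2 proteoglycan of pericytes, was at 7.39 and 6.71 against 1.36 and 0.154 CPM, and Ret, the receptor of the GDNF family, at 9.26 and 10.4 against 1.65 and 0.0513 CPM. Ttll11, Adgrb1 and Fhl2 were the remaining members beside Pmepa1 and Ltbp1.

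Some of these genes are typical of stromal or epithelial cells, so the whole marker lists were read beside them. Of 12 tested stromal and osteoblast genes, 5 were higher in both mandible libraries and none was lower, against 29.2% and 31.5% of tested genes. Col1a1, the main collagen of bone, was at 27.8 and 28.5 CPM in the mandible and at 0.0647 and 12.2 CPM in the femur, and Sparc at 18.2 and 16.9 against 0.129 and 7.03 CPM. In both genes femur replicate 2 came closer to the mandible than replicate 1, the reverse of most genes. The summed list, led by Spp1, which osteoclasts also make, did not separate the sites, at 941.3 and 943.9 against 1180 and 617.8 CPM. Thy1 had no count in the 4 libraries. Of 4 tested epithelial and odontogenic genes, Krt5 and Krt14 were higher in the mandible and Epcam and Cdh1 overlapped, with Krt8, Enam and Dspp at 0 in all 4 libraries. The part of stromal and epithelial cells in the mandible genes was not tested.

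Genes that pattern the body axis were nearly silent at both sites. Of 31 Hox genes, 16 had no count in the 4 libraries and only 4 were tested. Hoxb3 was lower in the mandible, at 0.408 and 0.330 against 0.517 and 3.28 CPM. Hoxa4, at 1.18 and 1.54 against 1.71 and 0.410 CPM, and Hoxb4 overlapped. Of 20 jaw mesenchyme genes, 4 were tested. Msx2 was the one separated, at 0.449 and 0.954 CPM in the mandible and no count in the femur, which is at least 2.92-fold higher against the floor of 3 counts per library. Dlx2 overlapped, with 0.245 and 0.183 against 0.0323 and 0.308 CPM.

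Interferon response genes formed the most uniform group on the lower side. All 37 listed genes were tested, and all 37 were lower in both mandible libraries than in both femur libraries, against 31.5% of all tested genes. An unadjusted p under 0.05 was also reached by all 37, against 14.7% of tested genes, while none passed adjustment. Their median log2 fold change was −3.49, beside −0.03 over all genes tested, and −2.20 without femur replicate 2. The gap was at least 1 log2 unit in 29 of them (78.4%, against 3.32%). The list was written with earlier results of these data known.

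The element that the STAT and IRF9 complex binds was searched in promoter windows from RefSeq (mouse build GRCm38.p6, 250 bases before to 50 after each gene's start) as GAAANNGAAA on both strands, which reads TTTCNNTTTC on the other strand. The windows of Rsad2, Ifit1 and Ifit3 are shown because these genes had 3 of the widest gaps and hold it. Each is given 5′ to 3′ on the gene's strand, ending at the base before the start, with matches in capitals. They lie at chr12:26456453-26456702 (minus strand), chr19:34640639-34640888 (plus) and chr19:34583279-34583528 (plus).
Rsad2: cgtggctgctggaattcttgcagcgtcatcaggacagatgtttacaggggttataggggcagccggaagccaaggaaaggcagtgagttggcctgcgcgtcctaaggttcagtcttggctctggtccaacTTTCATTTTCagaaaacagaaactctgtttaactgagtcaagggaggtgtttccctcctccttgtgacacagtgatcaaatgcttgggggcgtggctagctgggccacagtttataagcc
Ifit1: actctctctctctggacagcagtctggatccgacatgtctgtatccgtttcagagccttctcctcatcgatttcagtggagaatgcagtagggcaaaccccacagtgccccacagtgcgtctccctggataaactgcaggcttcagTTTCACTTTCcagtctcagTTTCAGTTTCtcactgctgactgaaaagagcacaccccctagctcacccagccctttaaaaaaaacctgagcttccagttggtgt
Ifit3: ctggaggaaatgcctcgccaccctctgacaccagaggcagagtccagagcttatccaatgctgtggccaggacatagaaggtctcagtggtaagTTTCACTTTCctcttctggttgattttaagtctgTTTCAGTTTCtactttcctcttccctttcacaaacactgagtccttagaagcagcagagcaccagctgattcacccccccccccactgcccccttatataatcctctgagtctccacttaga
Rsad2 held 1 match, 120 to 111 bases before its start, and Ifit1 and Ifit3 held 2 each, at 104 to 95 and 85 to 76 bases and at 156 to 147 and 122 to 113 bases. Of the 37 interferon response genes, 27 had a window and 17 of these (63%) held the letters, compared with 1079 of all 27025 genes (3.99%). Among genes with a gap of at least 1 log2 unit, 62 of 370 lower genes with a window (16.8%) and 5 of 157 higher genes (3.18%) held them. A match is a description of letters and shows no binding.

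Rsad2 encodes viperin, an antiviral enzyme. It stood at 0.694 and 0.587 CPM in the mandible and at 13.2 and 73.0 CPM in the femur, a log2 fold change of −6.06 ± 0.88 (SE). Both mandible libraries were thus far below even the lower femur library, femur replicate 1, which came from the same mouse as mandible replicate 1. The IFIT proteins bind viral RNA. Ifit2 was at 0.979 and 1.25 against 16.9 and 120 CPM, Ifit3 at 0.449 and 0.514 against 7.08 and 48.3 CPM, and Ifit1 at 0.490 and 0.660 against 7.11 and 53.8 CPM. Ifit3 and Ifit3b are near copies whose reads can be split between them.

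Irf7, the factor that amplifies interferon production, was at 1.80 and 1.91 CPM in the mandible and at 14.7 and 72.1 CPM in the femur. Oasl2, of the oligoadenylate synthetase family, was at 1.06 and 1.65 against 14.5 and 122 CPM, and Isg15, a ubiquitin-like modifier, at 1.14 and 1.36 against 6.37 and 18.9 CPM. Mx2 had the largest fitted change on few counts, 2 and 3 in the mandible against 32 and 276 in the femur, a ratio of 63.2 (exact 95% counting interval 26.8 to 196). Outside the list, Trim30c had 1 count in each mandible library and 87 and 388 counts in the femur.

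The unligated femur libraries were above the mandible for nearly all of them. Of the 37 genes, 35 were lower in the mandible than in all 4 LSD1WT femur libraries, beside 74% of the 4854 lower genes and 23.3% of tested genes. The exceptions, named after their values were seen, were Ifi205, at 0.204 and 0.661 CPM in the mandible and 0.621 CPM in unligated femur replicate 2, and Gbp3, at 6.77 and 7.67 against 7.08 CPM. In LSD1cKO, all 37 were again lower in both mandible than in both femur libraries, against 35% of tested genes, with a median of −3.51. Levels there were higher at both sites. Rsad2 stood at 2.40 and 6.24 CPM in the LSD1cKO mandible and at 177 and 186 CPM in the femur, and Irf7 at 4.53 and 16.6 against 254 and 390 CPM. Both LSD1cKO mandible values of Irf7 exceeded those of LSD1WT mandible, yet replicate 2 lay near femur replicate 1 of LSD1WT.

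**Figure D2:**
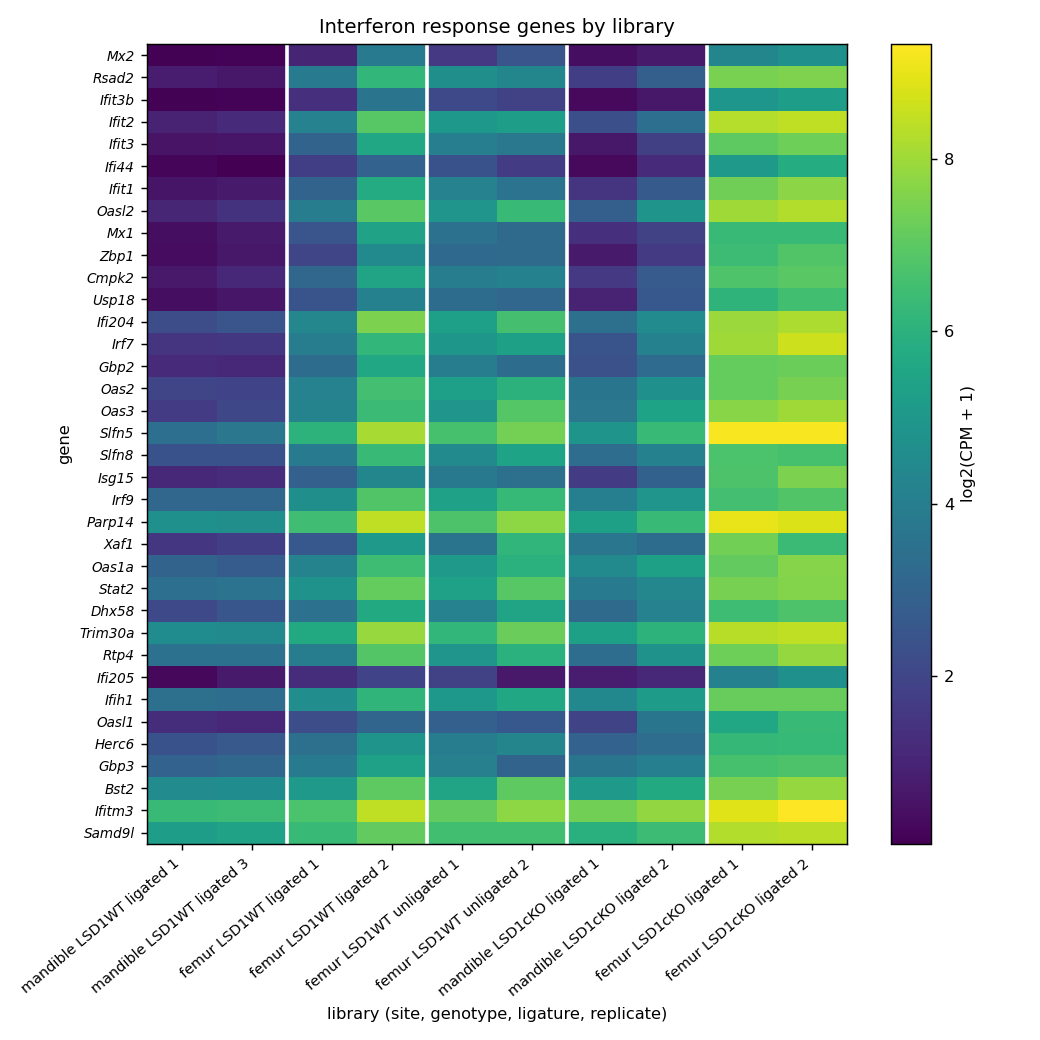
Heat map of log2(CPM + 1) for 36 of the 37 interferon response genes (rows, ordered by the LSD1WT fold change) in 10 libraries (columns), with white lines between the 5 conditions. The 2 left columns, mandible LSD1WT, are the darkest of the LSD1WT block in all 36 rows against the ligated femur, and the 2 right columns, femur LSD1cKO ligated, are brightest, above all 8 other libraries in 35 of these 36 genes.

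Genes upstream of this response were lower as well, by smaller amounts. Of 14 interferon receptors and sensors, 12 were lower in both mandible libraries, against 31.5% of tested genes, and Cgas and Irf3 were higher. Of the 14, 10 were lower at an unadjusted p under 0.05, against 14.7% of tested genes. Ifnar1, a chain of the type I receptor, was at 118 and 117 CPM in the mandible and at 180 and 321 CPM in the femur. Tlr7, an endosomal sensor of RNA, was at 6.20 and 6.53 against 27.5 and 506 CPM, so that femur replicate 2 held most of it. The median log2 fold change of the list was −1.26 with both femur libraries and −0.62 without femur replicate 2.

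Resident-macrophage genes were the other large group on the lower side. Of 20 macrophage markers, 17 were lower in both mandible libraries, against 31.5% of tested genes, and none was higher. Of the 20, 15 were lower at an unadjusted p under 0.05, against 14.7% of tested genes. Mrc1, the mannose receptor, was at 6.45 and 6.83 CPM in the mandible and at 69.7 and 2208 CPM in the femur. C1qb, a chain of complement C1q, was at 21.7 and 22.8 against 107 and 2287 CPM, and Apoe, the lipid-carrying apolipoprotein E, at 43.9 and 45.5 against 253 and 5658 CPM. In each of them femur replicate 2 towered over the rest, but femur replicate 1 also lay several fold above both mandible libraries. The median log2 fold change of the list was −4.79, and −1.74 without femur replicate 2. Marco, Cx3cr1 and Axl overlapped between the sites.

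Other genes with wide gaps had the same form. Fcrls, an Fc receptor-like scavenger protein of microglia and macrophages, was at 0.163 and 0.220 CPM in the mandible and at 3.01 and 523 CPM in the femur, and Ms4a4a at 0.163 and 0.110 against 2.39 and 235 CPM. Abca9, a lipid transporter of the ABC family, was at 0.612 and 0.991 against 10.2 and 246 CPM, and Ednrb, an endothelin receptor, at 0.490 and 0.367 against 4.59 and 198 CPM. In LSD1cKO, where the femur replicates were alike, Mrc1 was at 3.71 and 7.14 CPM in the mandible and at 172 and 95.4 CPM in the femur. All 12 genes with the widest gap on the lower side were separated the same way in LSD1cKO, as were 69.4% of the 4854 lower genes and 35% of tested genes.

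Egr1 (ENSMUSG00000038418), an early growth response factor, had the widest gap on the lower side among genes of at least 16 CPM and a different pattern. It was at 3.63 and 3.56 CPM in the mandible and at 122 and 74.2 CPM in the ligated femur libraries, a log2 fold change of −4.77 ± 0.69 (SE, edgeR adjusted p = 0.167). Here femur replicates 1 and 2 were alike, and the unligated femur libraries were not, at 6.45 and 1.66 CPM. Egr1 was the one gene of the 12 not lower than all 4 femur libraries. In LSD1cKO it was at 3.06 and 2.72 CPM in the mandible, 44.3 and 56.8 CPM in the ligated femur and 7.41 and 3.12 CPM in the unligated femur. Immediate early genes respond within minutes to growth factors and stress. Of 16 listed, 13 were lower in both mandible libraries, against 31.5% of tested genes. Against all 4 LSD1WT femur libraries 8 were lower, beside 23.3% of tested genes. Leaving out femur replicate 2 moved their median log2 fold change from −1.95 to −1.20. Egr2 was at 1.55 and 1.58 against 9.25 and 11.4 CPM and Egr3 at 1.22 and 1.25 against 14.5 and 6.05 CPM, whereas Junb, Jund and Klf4 overlapped.

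Genes of bone resorption mostly overlapped between the sites. The 16 bone-resorbing effectors included 12 whose libraries overlapped, since the mandible values lay between the 2 femur values. Slc4a2, Slc9b2 and Atp6v1c1 were higher in the mandible and Plekhm1 was lower, with gaps of at most 0.0908 log2 units. Those 3 higher and 1 lower of 16 stand against 29.2% and 31.5% of tested genes. Acp5, the acid phosphatase used as the TRAP stain, was at 4840 and 4832 CPM in the mandible and at 7234 and 8.31 CPM in the femur. Ctsk, the collagen-cleaving cathepsin K, was at 7278 and 7133 against 7599 and 5.90 CPM, and Mmp9 at 9570 and 9636 against 21240 and 20.4 CPM. Calcr, the calcitonin receptor, was at 45.0 and 41.2 against 135 and 0.154 CPM. Signs of the fold change therefore hang on 1 library: Mmp9 had a log2 fold change of −0.15 with both femur libraries and 8.91 without femur replicate 1, and Acp5 of 0.42 with both and −0.54 without femur replicate 2. In LSD1cKO both femur libraries held osteoclast transcripts. There 8 of the 16 were lower and 2 higher in the mandible, against 35% and 35.3% of tested genes.

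**Figure D3:**
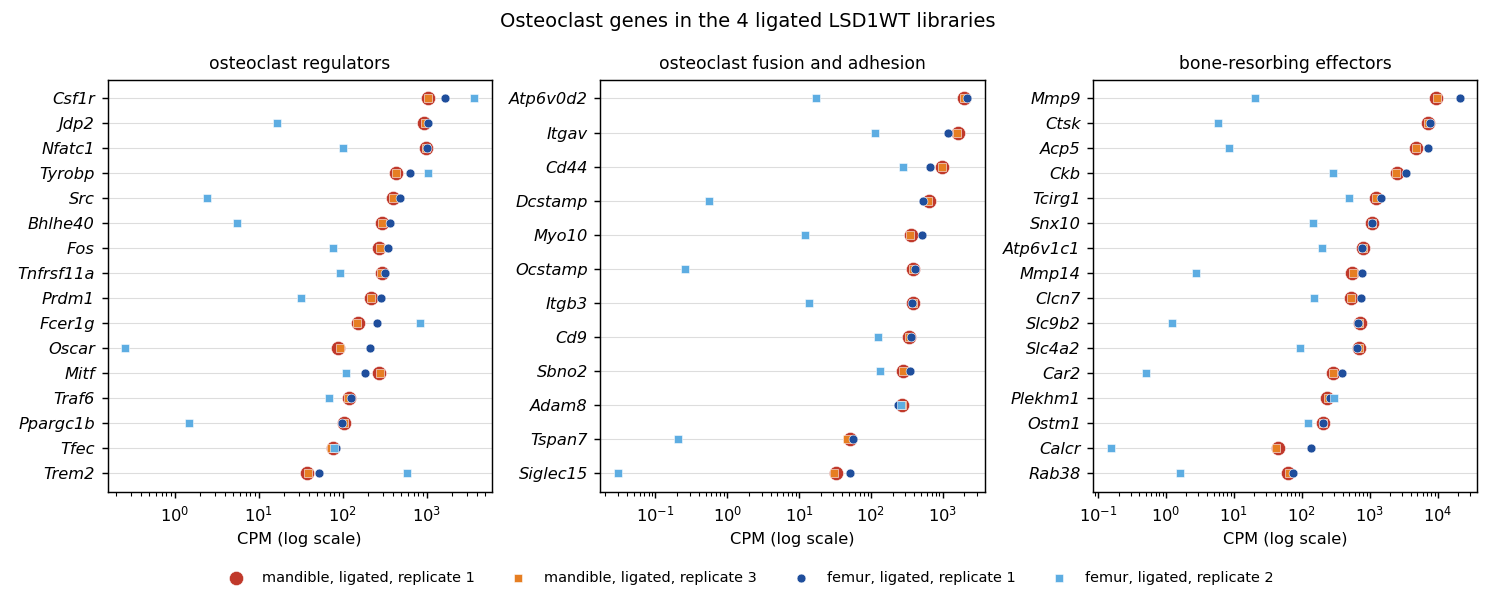
CPM on a log axis of 44 osteoclast genes in 3 groups, with 1 point for each of the 4 ligated LSD1WT libraries and values under 0.03 CPM drawn at 0.03. Mandible points lie beside femur replicate 1 in nearly every row, and femur replicate 2 lies far to the left for genes such as Acp5 (8.31 CPM) and Ctsk (5.90 CPM).

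A few fusion and adhesion genes did lie above both femur libraries, 5 of 12 against 29.2% of tested genes. Dcstamp, needed for precursors to fuse, was at 642 and 632 CPM in the mandible and at 526 and 0.565 CPM in the femur. Itgav, the alpha chain of the vitronectin receptor, was at 1623 and 1601 against 1203 and 113.9 CPM, and Cd44, a hyaluronan receptor, at 972 and 974 against 660 and 280.5 CPM. Itgb3 and Adam8 were the other members, with gaps over the nearer femur library that were small. In LSD1cKO 7 of the 12 were higher and 2 lower, against 35.3% and 35% of tested genes. Among 16 osteoclast regulators, Mitf, a factor of osteoclast gene activation, was higher, at 273 and 276 against 184 and 108 CPM, and so was Ppargc1b. Nfatc1, the main factor of the lineage, overlapped at 995 and 995 against 998 and 101.7 CPM. In all, 2 of the 16 regulators were higher and 5 lower, against 29.2% and 31.5% of tested genes, so the lower share was near that of all genes. The 5 lower ones included Csf1r, the M-CSF receptor, at 1051 and 1050 against 1668 and 3684 CPM. Trem2, a receptor of myeloid cells, was another, at 38.2 and 39.0 against 52.1 and 585 CPM.

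Of 12 repressors of osteoclast differentiation, 9 were lower in both mandible libraries, against 31.5% of tested genes, and none was higher. The median log2 fold change was −1.63, or −0.61 without femur replicate 2. Irf8, which holds precursors in the monocyte state, was at 9.59 and 9.94 CPM in the mandible and at 20.3 and 232 CPM in the femur. In LSD1cKO 7 were lower and 4 higher, against 35% and 35.3% of tested genes. The higher ones included Id1 at 5.87 and 5.96 against 1.32 and 1.71 CPM, where LSD1WT had 1.10 and 1.14 against 3.17 and 12.5 CPM.

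Proliferation genes were the one list in which every tested member was higher in the mandible, 20 of 20, against 29.2% of tested genes. Sizes were modest, the median log2 fold change being 0.86, and 1.46 without femur replicate 1. An unadjusted p under 0.05 was reached by 4, against 5.06% of tested genes. Mki67, a marker of cycling cells, was at 276 and 271 CPM in the mandible and at 194 and 118 CPM in the femur, and Rrm2, which makes deoxynucleotides, at 102 and 98.5 against 44.8 and 13.03 CPM. Only 2 of the 20 were higher than in all 4 LSD1WT femur libraries, against 20.5% of tested genes. Unligated femur replicate 2 was high, with 3420 CPM over the list against 2024 and 2000 CPM in the mandible. All 20 were higher in the LSD1cKO mandible too, against 35.3% of tested genes, with a median of 2.01.

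**Figure D4:**
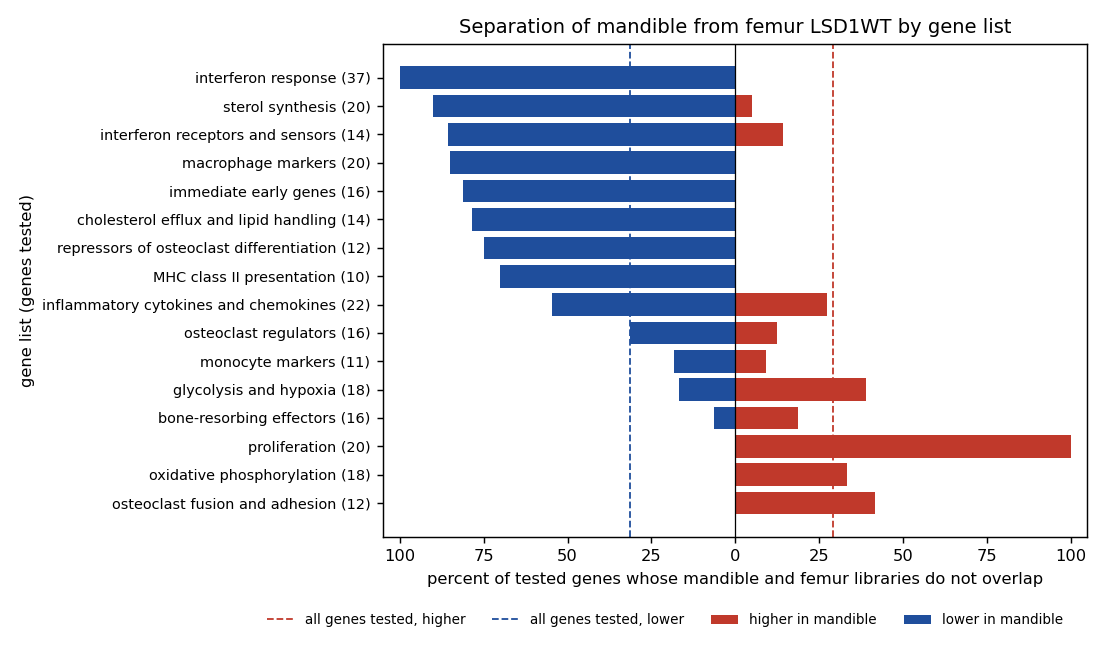
Percent of the tested genes of each list whose mandible and femur LSD1WT libraries do not overlap, with genes higher in the mandible to the right and lower to the left, and dashed lines at the values over all genes tested (29.2% and 31.5%). Interferon response genes reach 100% on the lower side (37 of 37) and proliferation genes 100% on the higher side (20 of 20), while the bone-resorbing effectors stay below both lines.

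Of 20 sterol synthesis genes 18 were lower in both mandible libraries, against 31.5% of tested genes, and Hsd17b7 was higher. An unadjusted p under 0.05 was reached by 4 of the 20, a share near the 14.7% of all tested genes. With all libraries the median was −0.71 on the log2 scale, and leaving out femur replicate 2 gave −0.33. In LSD1cKO 9 of the 20 were lower and 3 higher, against 35% and 35.3% of tested genes, with a median of −0.037. Insig1, the sterol-regulated brake of the pathway, was at 64.7 and 72.0 CPM in the mandible and at 161 and 332 CPM in the femur. Of 14 tested cholesterol efflux and lipid handling genes, 11 were lower, against 31.5% of tested genes, and none was higher. Their median, −2.20 on the log2 scale, became −1.20 once femur replicate 2 was left out. Abca1, the cholesterol exporter, was at 24.1 and 24.4 against 167 and 314 CPM, and Scd2, a fatty acid desaturase, at 41.7 and 42.5 against 619 and 148 CPM. In these last genes femur replicate 1 was itself far above the mandible.

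Of 22 tested cytokines and chemokines, 12 were lower and 6 higher in both mandible libraries, against 31.5% and 29.2% of tested genes. Cxcl10, an interferon-induced chemokine, was at 0.653 and 0.587 CPM in the mandible and at 7.18 and 17.2 CPM in the femur, and Nlrp3, the inflammasome sensor, at 7.02 and 6.20 against 19.5 and 176 CPM. On the higher side were Il10, an anti-inflammatory cytokine, at 6.77 and 7.45 against 0.485 and 5.54 CPM, and Arg1, an arginine-degrading enzyme, at 0.571 and 0.550 against 0.0323 and 0.0513 CPM, near the limit of detection in the femur. MHC class II genes were lower in 7 of 10, against 31.5% of tested genes. Only 2 of the 10 were lower than in all 4 LSD1WT femur libraries, against 23.3% of tested genes. Their median of −0.64 on the log2 scale became −0.38 without femur replicate 1. Monocyte markers mostly overlapped, with 1 higher and 2 lower of 11, against 29.2% and 31.5% of tested genes. Glycolysis and hypoxia genes had 7 higher and 3 lower of 18, and oxidative phosphorylation genes 6 higher and none lower of 18. Both shares of higher genes were near the 29.2% of all tested genes.

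Because Pmepa1 and Ltbp1 led the higher genes, 24 genes of the TGF-beta pathway were read after their values had been seen. Of 23 tested, 5 were higher in both mandible libraries and 10 lower, against 29.2% and 31.5% of tested genes. Besides these, the receptor Tgfbr1 was higher, at 1059 and 1061 against 661 and 192 CPM, as were the inhibitory Smad7, at 19.995 and 18.7 against 9.99 and 6.06 CPM, and Tgfb2 at low levels. The ligand Tgfb1 was lower, at 164 and 176 against 280 and 358 CPM, and so were the signal transducers Smad2, Smad3 and Smad4.

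Across all tested genes, the mandible against femur fold changes of the 2 genotypes correlated with Pearson's r of 0.722 and Spearman's rho of 0.696. This is a correlation over genes, which are not independent, and the 2 comparisons share no library. Of the 4508 genes higher in the LSD1WT mandible, 3285 (72.9%) were separated the same way in LSD1cKO, against 35.3% of tested genes, and of the 4854 lower genes 3368 (69.4%), against 35%. Among genes with a gap of at least 1 log2 unit the shares were 193 of 258 (74.8%) and 480 of 512 (93.8%). The LSD1cKO comparison called no gene at an adjusted p of 0.05 in edgeR either, with 1261 higher genes (8.18%) and 1051 lower genes (6.81%) at an unadjusted p under 0.05, and 810 called by DESeq2. A test of the difference between the genotypes called none, with 63 genes (0.408%) whose log2 fold change was more positive in LSD1WT and 86 (0.558%) where it was more negative at an unadjusted p under 0.05, and 1 called by DESeq2. With both genotypes and both ligature states read at once, 1091 genes (7.07%) were higher in all 4 mandible than in all 8 femur libraries and 1107 (7.18%) were lower.

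**Figure D5:**
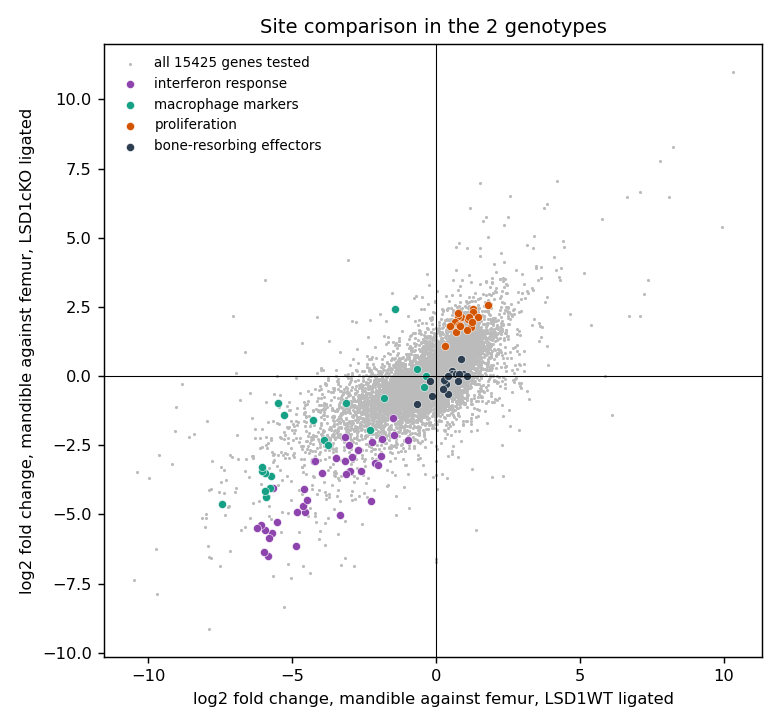
Log2 fold change of mandible against femur in ligated LSD1WT (horizontal) and ligated LSD1cKO (vertical) for 15425 genes, with 4 lists coloured. Interferon response and macrophage genes lie mostly at the lower left, proliferation genes in the upper right, and bone-resorbing effectors near 0 on both axes (Pearson's r over all genes 0.722).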

How the data were processed

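Read counts per gene, as the authors deposited them, were analysed for 12 libraries of polyA RNA in 6 conditions of 2. The submitters' processing notes name GRCm39, HISAT2 2.1.0, FastQC, featureCounts and edgeR, without their roles or settings, and the counts carry no normalization. Total counts ran from 21375805 to 32526751. In edgeR 4.0.16 (R 4.3.3), genes were kept with filterByExpr (15425 of 57010), scaled by TMM and fitted with 1 coefficient for each condition over the 12 libraries, since 4 libraries leave few degrees of freedom. The quasi-likelihood test was two-sided, with Benjamini-Hochberg adjustment held to 0.05. CPM values (counts scaled to a common library size) use the TMM library sizes, and log2 CPM, used for gaps, a prior count of 2. SE values are of the fitted log2 fold change. A count of 0 was taken to allow 3 counts, and intervals and floors cover counting error only. The p-values and SE use a spread estimated over all 6 conditions of 2 libraries, not that of the compared pairs alone. Those pairs varied unequally, with a biological coefficient of variation of 0.0246 for mandible LSD1WT and 0.719 for ligated femur LSD1WT. The spread within the mandible pair may be technical.

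Members, gene lists (18 pathway and 12 cell type marker lists) and naming rules were chosen with earlier results of these data known. Named genes were the 12 with the largest gap in each direction among those of at least 16 CPM at the higher site, the 10 with the largest gap shared by both genotypes at 4 CPM or more, and members that describe a list. Provisional symbols, pseudogenes, immunoglobulin and mitochondrial genes were left out. Genes named from other lists, and the TGF-beta list, were chosen after their values were seen. Alternatives were DESeq2 1.42.0, RLE and upper-quartile scaling, other filters and gaps, a log2 fold change of at least 1, each library left out, the compared conditions alone, mandible replicate 3 as femur, the mandible pair summed, and a mouse block in edgeR or in limma 3.58.1. The fits were checked on simulated data that held known fold changes. Promoters came from RefSeq on GRCm38.p6, matched by symbol, and other measurements of the study were not analysed here.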

Additional observations from a re-analysis of the deposited data

Results flagged for a closer look

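In the 2 genotypes, 529 genes were separated by site in opposite directions without overlap, which is 172 of the 4508 genes higher in the LSD1WT mandible (3.82%) and 357 of the 4854 lower (7.35%). For this count the difference was not tested. For the single genes below, the test of the difference between the genotypes in edgeR gave an adjusted p of 0.9999 each. Among genes of the lists read here, log2 fold changes of mandible against femur in LSD1WT and LSD1cKO were −2.79 and 1.96 for Id1 and −3.33 and 0.87 for Id3, both inhibitors of helix-loop-helix factors. They were −2.56 and 0.16 for Pparg, a lipid-sensing nuclear receptor, −1.51 and 0.39 for Dusp1, a phosphatase of MAP kinases, and −1.07 and 0.35 for Rbpj, the DNA-binding partner of Notch. Sqle, an enzyme of sterol synthesis, had −0.37 and 0.94. Il1rn, the interleukin-1 receptor antagonist, had 1.08 and −0.46, and Procr, the protein C receptor, −0.54 and 0.35. In 7 of these 8 genes the LSD1WT mandible was the lower site.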

How the results depend on the processing

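The count of 0 called genes for mandible against femur in LSD1WT held under 12 of 15 alternatives, among them both rescalings, the 4 libraries alone, mandible replicate 3 taken as femur and the mandible pair summed. It rose to 821 without a filter and to 1190 with DESeq2. Leaving out 1 library gave 0 to 3753 calls, the latter without femur replicate 1, and the sole remaining femur library is then assumed to vary like the other groups. Against all 4 LSD1WT femur libraries, where the main count was 0, no filter gave 1100, DESeq2 1714 and leaving out 1 library 0 to 3996. In LSD1cKO no filter gave 329, DESeq2 810 and the compared conditions alone 6101, and the difference between genotypes gave 1 with DESeq2. The cause of these changes was not tested. Mice paired the sites in 1 LSD1WT and 2 LSD1cKO mice. With the mouse as a replicate block, in edgeR or in limma voom (estimated correlation −0.39), mandible against femur in LSD1WT kept 0 calls, and limma voom gave 2 for the comparison with 4 femur libraries. In LSD1cKO the mouse differences of the 2 sites correlated at 0.026. The 9362 separated genes became 2587 with a gap of at least 0.5 log2 units, 770 with a gap of at least 1, 16129 without a filter, 6089 with mandible replicate 3 as femur and 10645 to 14647 with 1 library left out, where fewer libraries make separation easier.

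Leaving out 1 library moved the median log2 fold change from −4.23 to −2.20 for interferon response genes, −5.66 to −1.74 for macrophage markers, −0.27 to 1.78 for osteoclast regulators, −0.044 to 4.89 for fusion and adhesion and −0.19 to 4.23 for bone-resorbing effectors, the last 3 changing sign. Single genes that also changed sign ranged from −1.11 to 8.91 (Mmp9), −1.61 to 8.12 (Calcr), −0.48 to 2.59 (Dlx2), −0.54 to 9.22 (Acp5), −0.038 to 10.29 (Ctsk) and −0.29 to 1.76 (Hoxa4), with one femur library left out at each end. The other named gene values kept their direction, 417 on the same side of the threshold and 80 past it. Depth limits genes of a few counts, such as Trim30c. The tests share a spread estimated over all conditions, and the femur LSD1WT pairs varied widely. Their coefficients of variation were 0.719 with a ligature and 0.663 without. The part of any one pair in the call counts was not tested.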

Other observations

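Markers of other marrow cells were read in the 4 libraries as whole lists. For each count below, 29.2% of all tested genes were higher and 31.5% lower in both mandible libraries. Of 15 tested neutrophil genes, 3 were higher and 3 lower in both mandible libraries, and the summed list stood at 179.4 and 177.7 CPM in the mandible and at 139.7 and 496.3 CPM in the femur. Dendritic cell genes had 5 of 9 lower and none higher, with 43.9 and 44.0 CPM over the list against 69.4 and 144.6 CPM. Eosinophil genes, 4 of them tested, summed to 60.9 and 63.4 CPM in the mandible and to 37.5 and 5.85 CPM in the femur. Of 5 tested endothelial genes, 2 were lower. The lists of T and NK cells, mast cells and erythroid cells had 3, 2 and 1 tested genes. Stem and progenitor genes had 2 higher and 2 lower of 7.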
